A study of Mus musculus with 12 samples.

Results

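Of the 25676 genes in the deposited expression table, 9 genes of hepatic steroid hormone metabolism were picked by symbol, and all 9 were found. They are the 3β-hydroxysteroid dehydrogenase genes *Hsd3b2*, *Hsd3b3* and *Hsd3b5*, the steroid reductase genes *Srd5a1* and *Akr1c6*, the 17β-hydroxysteroid dehydrogenase genes *Hsd17b2* and *Hsd17b13*, the glucocorticoid-activating enzyme gene *Hsd11b1* and the oestrogen receptor gene *Esr1*. The group was thus made up of 8 enzyme genes and 1 receptor gene, and not of enzymes alone. The question put to the data was how the level of each gene differed between livers with and without *Yap1*, and between males and females of each genotype.

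Whole liver was profiled by bulk RNA sequencing in 12 C57BL/6 mice aged 3-4 months, with 1 library per mouse. The 6 knockout mice (KO) lacked *Yap1* through Cre recombinase expressed under *Foxa3*, and the 6 wild-type mice (WT) were described as healthy. Each genotype had 3 males and 3 females, which gave 4 groups of 3 livers. The labels do not say whether the WT mice carried floxed alleles or Cre. *Foxa3* is active in the embryonic foregut endoderm, so Cre acts there in the forerunners of both hepatocytes and bile duct cells, and the loss of *Yap1* dates from before birth. YAP1 is a co-activator of transcription that works mainly through the TEAD factors and is needed for the bile ducts to form.

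Values are TPM, a measure that gives the share of each library's transcripts, corrected for gene length. The knockout was visible in every library: *Yap1* lay between 23.0 and 34.9 TPM in the WT livers and between 0.994 and 3.11 TPM in the KO livers (exact permutation test within sex, two-sided, p = 0.005, the smallest this design can give). The libraries held an estimated 20268356 to 28692218 reads, and 14321 to 15482 genes were above 0 in each. Differences are given as log2 differences of TPM + 1 with the standard error (SE) and the adjusted p of limma, and an adjusted p under 0.05 is taken as passing. The median gene of the 12278 tested was 0.35 higher in KO than in WT on this scale. A median-of-ratios rescaling, which sets the typical gene to no change, brought that median to -0.04, and rescaled values are given beside the main results. Whole liver was sampled, so fewer cells of a type and less RNA per cell cannot be told apart.

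The liver is the main site where steroid hormones are inactivated. The 3β-hydroxysteroid dehydrogenases convert between 3-hydroxy and 3-keto steroids, 5α-reductase and the aldo-keto reductases reduce the steroid ring and its keto groups, and 17β-hydroxysteroid dehydrogenases set the balance between potent and weak androgens and oestrogens. HSD11B1 works in the other sense and regenerates active corticosterone inside the hepatocyte. Many of these genes differ between male and female mouse liver, a difference known to be driven largely by the pattern of growth hormone secretion acting through STAT5b.

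*Hsd3b2*, *Hsd3b3* and *Hsd3b5* lie on the minus strand of chromosome 3 in a stretch of 361 kb (GRCm38, chr3:98499071-98859794) that also holds *Hsd3b4*, *Hsd3b6* and *Hsd3b1*. Other genes in and around this stretch were not described. Their proximal promoters are shown because these neighbours differed widely in level and in their response. Each line gives the 250 bases before a RefSeq transcription start, 5′ to 3′ on the gene's strand (RefSeq, GRCm38.p6), at chr3:98645535-98645784 for *Hsd3b5*, chr3:98724544-98724793 for *Hsd3b2* and chr3:98763129-98763378 for *Hsd3b3*. Capitals mark the letters of the TEAD motif GGAATG or its reverse complement.
Hsd3b5: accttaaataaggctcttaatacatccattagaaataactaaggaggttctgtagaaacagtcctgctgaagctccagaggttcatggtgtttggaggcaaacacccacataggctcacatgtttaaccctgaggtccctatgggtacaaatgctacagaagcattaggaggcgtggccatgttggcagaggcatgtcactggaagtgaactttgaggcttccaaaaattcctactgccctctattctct
Hsd3b2: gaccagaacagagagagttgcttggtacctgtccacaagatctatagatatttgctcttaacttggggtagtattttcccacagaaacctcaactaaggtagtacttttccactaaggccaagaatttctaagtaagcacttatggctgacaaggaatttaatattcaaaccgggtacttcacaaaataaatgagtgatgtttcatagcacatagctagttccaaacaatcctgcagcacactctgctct
Hsd3b3: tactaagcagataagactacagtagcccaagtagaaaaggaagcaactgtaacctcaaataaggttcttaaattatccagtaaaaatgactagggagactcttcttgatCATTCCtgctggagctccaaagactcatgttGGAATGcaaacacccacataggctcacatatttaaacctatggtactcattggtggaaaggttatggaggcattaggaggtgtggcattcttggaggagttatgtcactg

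The *Hsd3b3* window held the motif at 141 to 136 and at 110 to 105 bases before the start, and the *Hsd3b2* and *Hsd3b5* windows held no match. In global alignments over the 250 positions, with no baseline from unrelated windows, the *Hsd3b3* window was 60.4% identical to that of *Hsd3b5* and 54.8% identical to that of *Hsd3b2*, while *Hsd3b2* and *Hsd3b5* were 55.6% identical. The *Hsd3b5* window lies 15282 bases upstream of the gene's 5′ boundary in the GENCODE annotation, so the 2 annotations disagree on where this gene starts. Of the 9 genes, 8 had an entry in the promoter table, with 10 windows in all, and *Hsd17b2* had none. GGAATG, searched on both strands, was found in 4 of the 10 windows (those of *Akr1c6*, *Esr1* and *Hsd3b3*), against 12.6% of 32851 windows of the same length. These 32851 are the distinct windows of the promoter table outside chromosome 18, and shares of all windows below refer to them. Of the 4 windows with GGAATG, 2 belong to *Hsd3b3*, are 99.2% identical to each other and hold the same matches. In these 4, 1 sequence is thus counted more than once. The STAT5 motif TTCNNNGAA was found in 1 window, of *Esr1*, where it overlapped the TEAD match, against 7.02% of all windows. The palindromic oestrogen response element and the palindromic glucocorticoid response element were found in 0 of the 10 windows, and in 0.0639% and 0.387% of all windows. A match is a string of letters and not evidence of binding.

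Over both sexes, 7 of the 9 genes passed the genotype test, 1 higher and 6 lower in KO. Among all genes tested 54.9% passed, 50.1% higher and only 4.82% lower, so the 6 falls stood against a background of mostly rises. The median of the 9 genes was -0.74, against 0.35 for all genes tested. After rescaling the counts for the 9 genes were again 1 higher and 6 lower, with a median of -1.21, and 39.6% of all genes passed, 20.9% higher and 18.7% lower. In 7 of the 9 genes the 6 KO values lay wholly on one side of the 6 WT values, 1 above and 6 below, which held for 30.6% of all genes (28.7% above, 1.88% below). The summed level of the 9 genes was 2370 ± 434 TPM in WT males and 2116 ± 180.0 in WT females, and 1411 ± 127 in KO males and 1527 ± 117 in KO females (SD, n = 3 each).

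**Figure D1:**
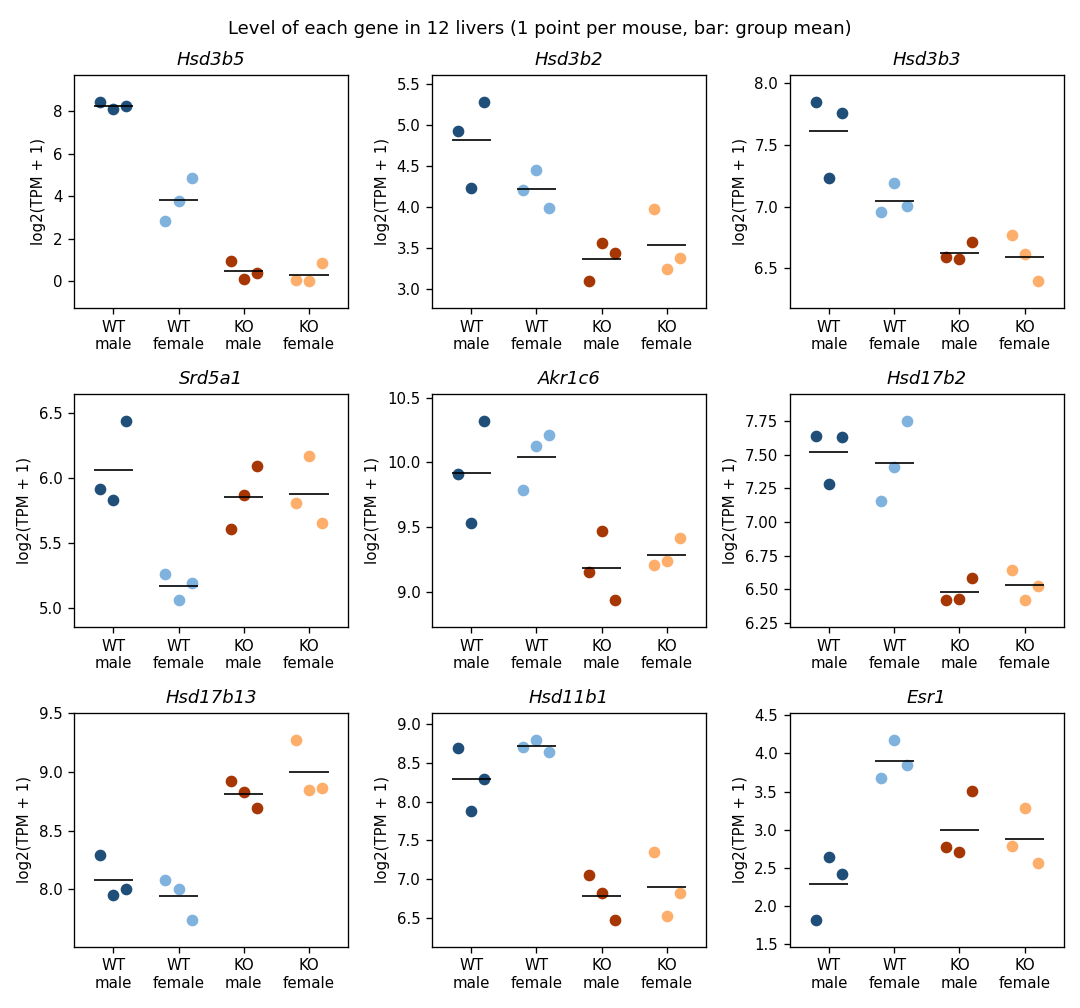
Level of each of the 9 genes in the 12 livers, as log2(TPM + 1) on the vertical axis, with 1 point per mouse, a bar at the group mean and a separate vertical scale for each gene. *Hsd3b5* spans the range from 347 TPM to 0, and *Hsd17b13* is the gene whose KO livers all lie above the WT livers. *Hsd3b3*, *Hsd3b5*, *Srd5a1* and *Esr1* separate the sexes in WT but not in KO.

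*Hsd3b5* encodes a liver-specific member of the 3β-hydroxysteroid dehydrogenase family that acts mainly as a 3-ketosteroid reductase and is a classical male-biased liver gene. The 3 WT males had 347, 270.0 and 298 TPM, and the 3 WT females had 6.14, 12.8 and 28.4 TPM. In the KO males the level was 0.961, 0.0691 and 0.296 TPM, and in the KO females 0.0562, 0 and 0.786 TPM. Every KO liver of either sex was below the lowest WT female, and the KO males and KO females overlapped. The KO values rested on 33 reads over all 6 libraries, against 17062 reads in the 3 WT males. The 1 KO female with 0 reads could have held up to 0.201 TPM, the level of 3 reads in that library. In males the log2 difference was -7.77 (SE 0.41, limma adjusted p = 4.4e-08), and the KO mean was 0.145% of the WT mean. In females it was -3.53 (SE 0.41, limma adjusted p = 4.4e-05), with the KO mean at 1.78% of the WT mean. The male effect minus the female effect was -4.24 (SE 0.59, limma adjusted p = 0.00186). This was the only one of the 9 genes to pass the interaction test, which 0.912% of all genes passed. With a pseudocount of 0.1 in place of 1 the difference was -3.74 and the call was lost (limma adjusted p = 0.267). Both KO groups lay near the lower limit of detection, where the size of a log2 difference depends on the pseudocount. The fall itself passed under every alternative tried. On the rescaled values the male difference was -8.16 and the female difference -3.67.

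*Hsd3b3*, a dehydrogenase and isomerase of liver and kidney, was the most abundant 3β-hydroxysteroid dehydrogenase gene of the 3 in WT females and in all KO livers. The WT males had 230.1, 149 and 216 TPM and the WT females 123, 145 and 127 TPM. In KO, the males had 95.6, 94.2 and 104 TPM and the KO females 108, 96.9 and 83.2 TPM. All 6 KO livers were below all 6 WT livers. In WT every male was above every female, and in KO the sexes overlapped. The level fell by 0.72 on the log2 scale (SE 0.14, limma adjusted p = 6.5e-04), or by 1.18 after rescaling. The fall was -0.99 in males (limma adjusted p = 5.9e-04). In females it was -0.46 and missed the threshold on the deposited scale (limma adjusted p = 0.0535), while the rescaled value of -0.80 passed (limma adjusted p = 0.00141). The deposited value also passed without the first or the second WT male (-0.46 each, limma adjusted p = 0.0492 and 0.0174) or the first KO female (-0.54, limma adjusted p = 0.0488).

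*Hsd3b2* is the lower-expressed neighbour of *Hsd3b3* and belongs to the same dehydrogenase and isomerase branch of the family. It was at 29.4, 17.8 and 37.9 TPM in the WT males and at 17.4, 20.9 and 14.8 TPM in the WT females. The KO males had 7.51, 10.8 and 9.81 TPM, and the KO females 14.7, 8.48 and 9.33 TPM. The KO and WT livers did not overlap, but the highest KO female, at 14.7 TPM, was close to the lowest WT female, at 14.8 TPM. The log2 difference was -1.07 (SE 0.21, limma adjusted p = 8.8e-04), and -1.50 after rescaling. It was -1.45 in males (limma adjusted p = 9.9e-04). In females it was -0.68 as deposited (limma adjusted p = 0.0662) and -1.01 after rescaling (limma adjusted p = 0.00524). The deposited value passed without the second or the third WT male (-0.68 each, limma adjusted p = 0.0296 and 0.0437) or the first KO female (-0.91, limma adjusted p = 0.0283). The male effect minus the female effect was -0.77 for *Hsd3b2* and -0.53 for *Hsd3b3*, and neither passed (limma adjusted p = 0.592 and 0.547).

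Within the summed level of these 3 genes, *Hsd3b5* made up 57.7 ± 3.88% in WT males and 9.34 ± 6.51% in WT females, but 0.416 ± 0.450% in KO males and 0.296 ± 0.473% in KO females (SD, n = 3 each). *Hsd3b3* made up 37.1 ± 2.58% in WT males, 79.9 ± 4.78% in WT females, 90.9 ± 1.11% in KO males and 89.7 ± 2.04% in KO females. *Hsd3b3* thus held most of the summed level in WT females and in both KO groups. Of the 3 neighbours named above, *Hsd3b4* and *Hsd3b6* had at most 3 reads in any library. *Hsd3b1*, the steroidogenic form of gonad and adrenal, had 17, 19 and 29 reads in the 3 WT females and 0 in each of the other 9 libraries, and its mean was too low for the test. Exact 100-base stretches shared with another gene made up 8.28% of the *Hsd3b2* transcripts, the largest number with *Hsd3b3*. They made up 4.67% of those of *Hsd3b3*, the largest number with *Hsd3b2*, and 7.79% of those of *Hsd3b5* (most with *Gm10681*, *Hsd3b4* and *Gm4450*). Part of their reads could thus be split between family members, and its size was not measured. The *Hsd3b3* reads fitted a length of 1772 bases, against 6396 annotated, so the share in the measured part may differ. The KO means were 10.1 TPM for *Hsd3b2* and 97.1 TPM for *Hsd3b3*, so reads given to the wrong gene would weigh most on *Hsd3b2*.

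*Srd5a1* encodes steroid 5α-reductase type 1, which reduces testosterone, progesterone and corticosterone. The WT males had 59.2, 56.0 and 85.8 TPM and the WT females 37.3, 32.3 and 35.6 TPM, so the sexes did not overlap in WT. The KO males had 47.8, 57.5 and 67.2 TPM and the KO females 55.2, 70.8 and 49.3 TPM, and these overlapped. Every KO female was above every WT female, and the KO males lay within or below the WT males. In females the log2 difference was 0.71 (SE 0.19, limma adjusted p = 0.0130), but 0.36 after rescaling (adjusted p = 0.156). In males it was -0.20 (limma adjusted p = 0.391), but -0.78 after rescaling (adjusted p = 0.00696). Which sex passes therefore depends on the scale, while the difference between the sexes in the effect was -0.91 as deposited (limma adjusted p = 0.260) and -1.14 after rescaling (adjusted p = 0.0707) and did not pass on either. The female call was also lost without the second WT female (0.65) or the second KO female (0.56). A noncoding gene, *Gm17108*, shares 13.6% of the 100-base stretches of the *Srd5a1* transcripts.

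*Akr1c6* encodes the aldo-keto reductase that acts as 17β-hydroxysteroid dehydrogenase in mouse liver and was the most abundant of the 9 genes in every group, per length. The WT males had 962, 741 and 1277 TPM, and the WT females 885, 1114 and 1186 TPM. In KO these were 570.2, 710.1 and 489 TPM in males and 591, 605 and 684 TPM in females. All KO livers were below all WT livers, with the second WT male closest to them. The level fell by 0.74 on the log2 scale (SE 0.14, limma adjusted p = 7.0e-04), by nearly the same amount in males (-0.73) and females (-0.75). After rescaling the fall was -1.21. The call within males was lost without the third KO male (-0.61, limma adjusted p = 0.0541), and that within females without the third WT female (-0.67, limma adjusted p = 0.0516).

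*Hsd17b2* encodes the enzyme that oxidises oestradiol to oestrone and testosterone to androstenedione and so inactivates both. It was at 198, 155 and 197 TPM in the WT males and at 141, 169 and 214 TPM in the WT females. It was at 84.7, 85.3 and 94.9 TPM in the KO males, and at 98.9, 84.5 and 91.1 TPM in the KO females. The KO livers formed a narrow band well below the WT livers. The KO mean was 50.2% of the WT mean, a log2 difference of -0.97 (SE 0.11, limma adjusted p = 1.2e-05), or -1.43 after rescaling. Males (-1.04) and females (-0.91) both passed.

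*Hsd17b13* is named after the same activity but encodes a protein of hepatocyte lipid droplets with retinol dehydrogenase activity, and it was the 1 gene of the 9 that rose in both sexes. The WT males had 312, 246 and 255 TPM and the WT females 269, 255 and 213 TPM. The KO males had 484, 454 and 413 TPM and the KO females 617, 460.5 and 466 TPM. No KO liver was as low as the highest WT liver. The log2 difference was 0.90 (SE 0.12, limma adjusted p = 3.5e-05), which is above the 0.35 of the median gene, and 0.43 after rescaling (SE 0.14, adjusted p = 0.0239). The rise in females was 1.06, and 0.71 after rescaling, and passed on both scales. The rise in males was 0.74 (limma adjusted p = 0.00276), but after rescaling it was 0.16 and did not pass (adjusted p = 0.534).

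*Hsd11b1* encodes the reductase that regenerates corticosterone from its inactive keto form. The WT males had 413, 234 and 312 TPM, and the WT females 418, 443 and 398 TPM. In KO, the males were at 131, 112 and 87.9 TPM and the females at 163, 90.8 and 112 TPM. The groups did not overlap, and the KO mean was 31.4% of the WT mean. The log2 difference was -1.66 (SE 0.17, limma adjusted p = 3.6e-06), or -2.13 after rescaling, the second largest fall among the 9 genes after *Hsd3b5*. It was -1.51 in males and -1.82 in females, and the difference between these did not pass (limma adjusted p = 0.791).

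*Esr1* encodes oestrogen receptor α, the nuclear receptor through which most oestrogen effects on the liver run. The WT males had 2.54, 5.24 and 4.33 TPM, and the WT females 11.8, 17.04 and 13.4 TPM. Among the KO livers, the males had 5.86, 5.54 and 10.4 TPM, and the females 5.90, 8.75 and 4.93 TPM. In WT every female was above every male, whereas the KO groups overlapped and lay between the 2 WT groups, apart from 1 KO female below the highest WT male. In females the log2 difference was -1.02 (SE 0.27, limma adjusted p = 0.0122), and -1.33 after rescaling. That call was lost without the second WT female (-0.88) or the third KO female (-0.86). In males it was 0.71, just short of the threshold (limma adjusted p = 0.0511), and 0.22 after rescaling. It passed with a pseudocount of 0.1 (0.83, limma adjusted p = 0.0477) and without the second WT male (0.88), the second KO male (0.85) or the second KO female (0.71). The difference between the sexes in the effect was 1.73 (SE 0.39, limma adjusted p = 0.0678) and did not pass, except without the second KO female (1.93, adjusted p = 0.0475).

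**Figure D2:**
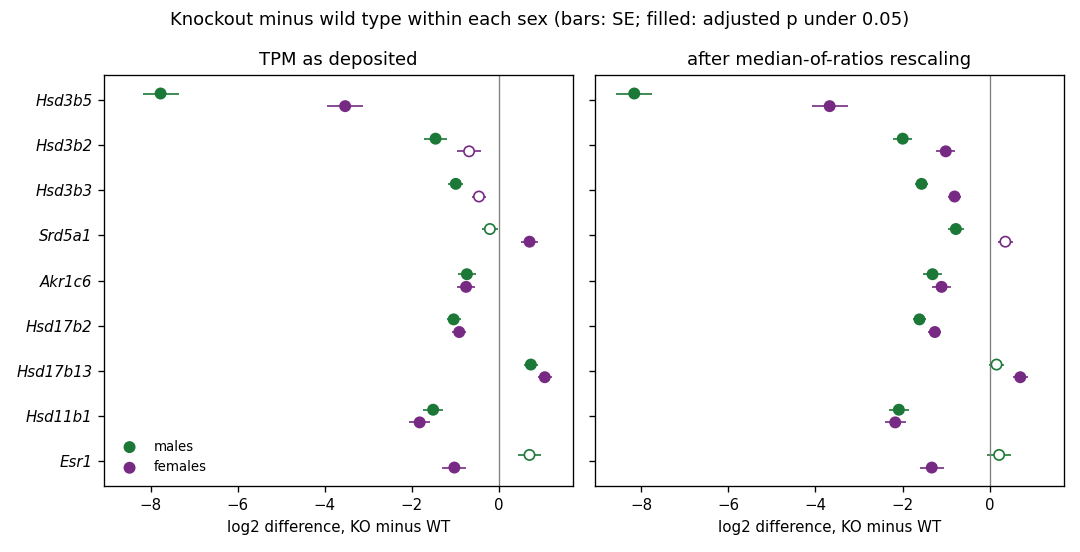
Log2 difference of KO minus WT on the horizontal axis for each of the 9 genes, in males and in females, with bars for the SE, on the deposited TPM (left) and after rescaling (right). Filled points passed at an adjusted p under 0.05. *Hsd3b5* lies farthest left, at -7.77 in males and -3.53 in females. *Hsd17b13* in each sex, *Srd5a1* in females and *Esr1* in males lie right of 0.

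Counted within each sex, 7 of the 9 genes passed in males (1 higher, 6 lower), where 46.1% of all genes did (43.3% higher, 2.81% lower). In females 7 also passed (2 higher, 5 lower), where 33.8% of all genes did (29.1% higher, 4.68% lower). The 6 that fell in males were *Hsd3b2*, *Hsd3b3*, *Hsd3b5*, *Akr1c6*, *Hsd17b2* and *Hsd11b1*. The 5 that fell in females were *Hsd3b5*, *Akr1c6*, *Hsd17b2*, *Hsd11b1* and *Esr1*, and the 2 that rose were *Hsd17b13* and *Srd5a1*. After rescaling, 7 genes fell and 0 rose in males, where 24.1% of all genes passed (10.2% lower, 13.9% higher). In females 7 fell and 1 rose, where 26.1% passed (10.9% lower, 15.2% higher).

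The sexes were compared within each genotype. In WT, 3 of the 9 genes passed, where 5.74% of all genes did (1.14% higher in males, 4.6% higher in females): *Hsd3b5* (4.42, SE 0.41, limma adjusted p = 2.4e-05) and *Srd5a1* (0.89, SE 0.19, limma adjusted p = 0.0185) were higher in males, and *Esr1* (-1.61, SE 0.27, limma adjusted p = 0.00457) was higher in females. The *Srd5a1* call was lost without the first (0.94) or the second WT female (0.83). *Hsd3b3* was higher in males by 0.57 (limma adjusted p = 0.0682), which passed after rescaling (0.79, adjusted p = 0.00819) and without the second WT male (0.76). *Hsd3b2* differed by 0.60 (limma adjusted p = 0.179), and *Akr1c6*, *Hsd17b2*, *Hsd17b13* and *Hsd11b1* by -0.43 to 0.14. In KO none of the 9 genes passed the limma test of sex, where 0.0814% of all genes did, and none had an unadjusted p under 0.05, the lowest being 0.275. The male minus female differences in KO ran from -0.18 (*Hsd17b13*) to 0.18 (*Hsd3b5*), and all 9 genes overlapped between the sexes, against 9.5% of all genes that did not. With 3 mice a group this does not show that the KO sexes are alike. Whether the sex difference itself differed between genotypes is the interaction test above, which *Hsd3b5* alone passed.

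**Figure D3:**
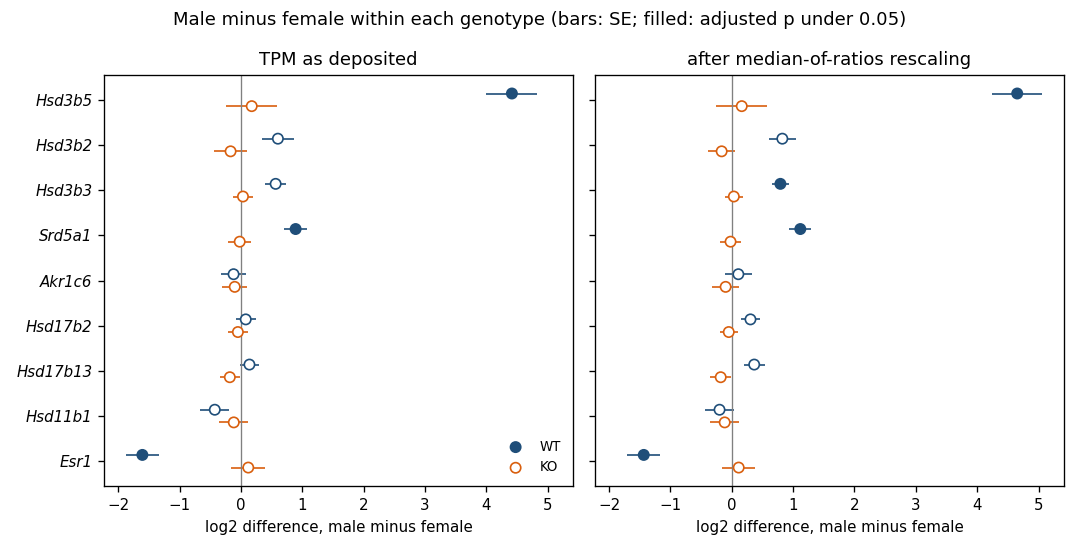
Log2 difference of males minus females on the horizontal axis for each of the 9 genes, in WT and in KO, with bars for the SE, on the deposited TPM (left) and after rescaling (right). Filled points passed at an adjusted p under 0.05. The WT points for *Hsd3b5*, *Srd5a1* and *Esr1* lie away from 0, at 4.42, 0.89 and -1.61, and the KO points lie between -0.18 and 0.18.

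In the authors' deposited table, whose KO against WT comparison does not name the animals used, 6 of the 9 genes were lower with an FDR printed as 0.00. The authors' log2 fold changes were -10.28 for *Hsd3b5*, -1.996 for *Hsd11b1*, -1.62 for *Hsd3b2*, -1.49 for *Hsd17b2*, -1.35 for *Hsd3b3* and -1.16 for *Akr1c6*. The authors' deposited table gave 0.41 for *Hsd17b13* (FDR 0.28), -0.46 for *Srd5a1* (FDR 0.22) and -0.30 for *Esr1* (FDR 0.57). The value for *Hsd17b13* in the authors' deposited table was close to the rescaled 0.43 and below the 0.90 of the unscaled TPM.

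The other members of the enzyme families were read as lists. Among all genes tested 50.1% rose and 4.82% fell as deposited, and 20.9% rose and 18.7% fell after rescaling. The genotype counts for the lists below stand against these shares. Of 4 further 3β-hydroxysteroid dehydrogenase genes analysed here only *Hsd3b7*, which acts in bile acid synthesis, was high enough to test, and at -0.30 it did not pass (limma adjusted p = 0.150) except after rescaling (-0.76). Of 9 further 17β-hydroxysteroid dehydrogenase genes analysed here 6 were tested. *Hsd17b10* (-0.39, rescaled -0.85) and *Hsd17b4* (-0.36, rescaled -0.82), enzymes of mitochondrial and peroxisomal oxidation, fell, and *Hsd17b12* (0.35), of fatty acid elongation, rose as deposited and stood at -0.11 without passing after rescaling. *Hsd17b6*, *Hsd17b7* and *Hsd17b11* did not pass as deposited, and after rescaling 0 of the 6 rose and 3 fell. Of 8 further *Akr1c* genes 5 were tested and 3 fell, namely *Akr1c14* (-1.18), the liver 3α-hydroxysteroid dehydrogenase, *Akr1c12* (-0.65) and *Akr1c20* (-0.36), while *Akr1c13* (-0.19) and *Akr1c19* (-0.31) did not pass. After rescaling 4 of the 5 fell, with *Akr1c14* at -1.64, *Akr1c12* at -1.11 and *Akr1c20* at -0.82. *Akr1c14* went from 215 TPM in WT to 94.8 TPM in KO and by the same -1.18 in each sex as deposited, and by -1.75 in males and -1.53 in females after rescaling.

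Among 4 tested genes of the other reductases and their cofactor supply, 3 rose and 0 fell as deposited, where 50.1% of all genes rose. After rescaling 1 rose and 0 fell. *Srd5a3*, which works in dolichol synthesis, rose by 1.20 and also after rescaling (0.78). *H6pd*, which supplies the NADPH that HSD11B1 uses, rose by 0.68 (130.8 to 205 TPM), and *Akr1d1*, the 5β-reductase, rose by 0.48. Neither of these passed after rescaling, at 0.22 and 0.02. *Akr1d1* went from 89.1 to 173 TPM in males (0.94, limma adjusted p = 5.4e-04) and from 161 to 163 TPM in females (0.02, limma adjusted p = 0.945), and its interaction did not pass (limma adjusted p = 0.107). *Hsd11b2*, which inactivates corticosterone in kidney, was listed at 0 in all 12 livers. So *H6pd* did not share the fall of *Hsd11b1* on either scale.

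Of 5 further steroid receptor genes 2 were tested. The glucocorticoid receptor gene *Nr3c1* stood at 0.01 and did not pass as deposited, and fell by 0.44 after rescaling. The mineralocorticoid receptor gene *Nr3c2* passed on neither scale, and *Esr2*, the other oestrogen receptor gene, was listed at 0 in all livers.

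In the steroidogenic P450 list, 7 of 11 genes were tested and 1 rose, *Cyp21a1* (0.89, from 1.57 to 3.59 TPM), while after rescaling 1 rose and 4 fell. *Cyp17a1*, the 17α-hydroxylase, passed over both sexes only after rescaling (-1.62). Its mean was 90.7 TPM in WT females, 2.34 TPM in WT males, 3.93 TPM in KO males and 11.6 TPM in KO females. It fell by 3.09 in females (limma adjusted p = 9.3e-05), and the male effect minus the female effect was 3.67 (limma adjusted p = 0.00445). Among conjugation and plasma transport genes, *Sult1e1*, the oestrogen sulfotransferase, rose by 2.85 (SE 0.46, limma adjusted p = 1.8e-04), from 0.437 ± 0.389 TPM in WT to 13.2 ± 11.4 TPM in KO (SD, n = 6), and by 2.59 after rescaling (limma adjusted p = 8.7e-04). The KO mean was 20.8 TPM in males and 5.61 TPM in females. *Sult1e1* rose by 3.79 in males (3.47 after rescaling, also passing) and by 1.90 in females (limma adjusted p = 0.0174), where the rescaled 1.71 did not pass (limma adjusted p = 0.0519). The male effect minus the female effect was 1.89 and did not pass (limma adjusted p = 0.494). *Serpina6*, the corticosteroid-binding globulin of plasma, fell by 1.63 (limma adjusted p = 6.9e-04). Its mean went from 747 to 141 TPM in females (-2.43, limma adjusted p = 1.2e-04) and from 164 to 84.4 TPM in males (-0.83, limma adjusted p = 0.0513, and -1.40 with adjusted p = 0.00644 after rescaling). The interaction did not pass (limma adjusted p = 0.224). In WT, males were lower than females by 2.29 on the log2 scale (limma adjusted p = 9.4e-04).

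**Figure D4:**
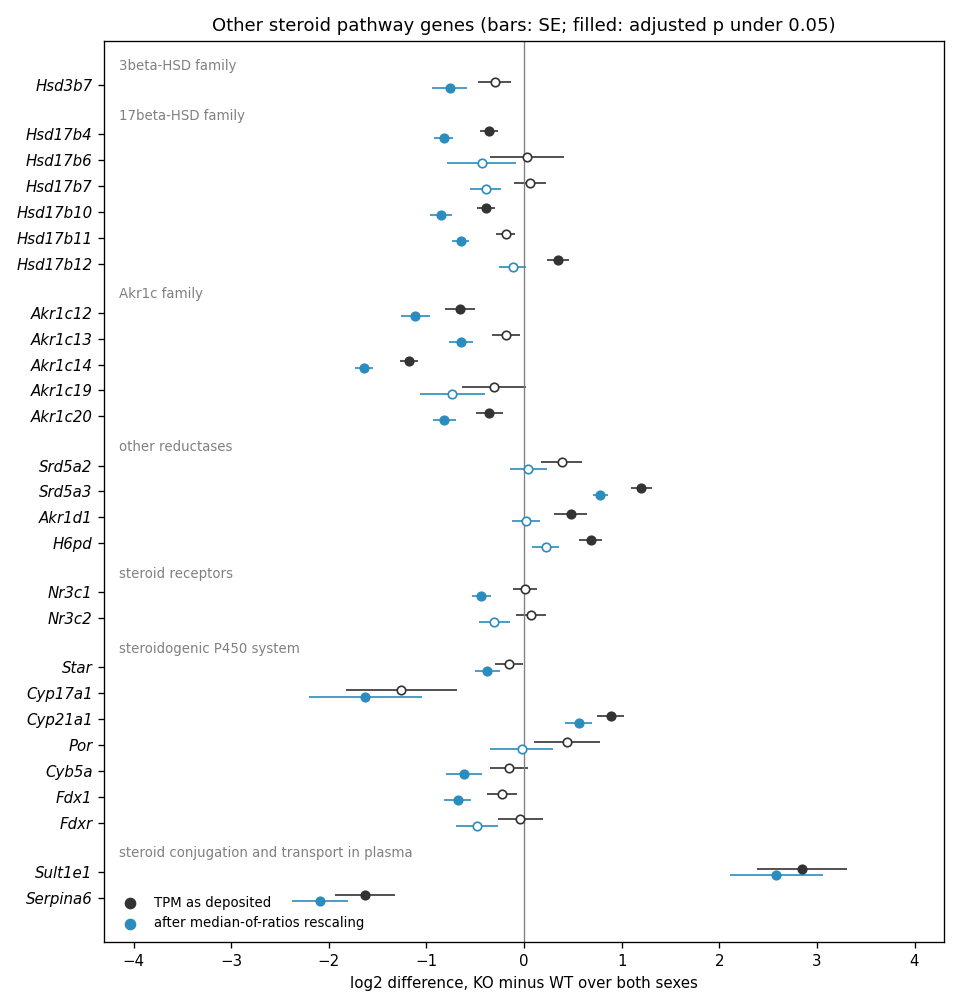
Log2 difference of KO minus WT over both sexes on the horizontal axis for further steroid pathway genes, grouped by family, with bars for the SE, on the deposited TPM (black) and after rescaling (blue). Filled points passed at an adjusted p under 0.05. *Sult1e1* lies farthest right at 2.85, *Serpina6* and *Akr1c14* lie farthest left among the filled black points at -1.63 and -1.18, and the blue points lie to the left of the black ones.

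Genes that respond to glucocorticoids did not move in 1 direction. Of 9 tested, 3 rose and 1 fell as deposited, with a median of 0.22 against 0.35 for all genes. *Dusp1* rose by 1.74, *Zbtb16* by 1.10 and *Sgk1* by 0.95, and *Tsc22d3* fell by 0.77. Within the sexes, 3 rose in females (2 after rescaling, where 1 fell) and 1 in males, *Fkbp5* (1.20), which stood at 0.69 without passing after rescaling, where *Tsc22d3* alone passed in males, lower (-1.25). *Dusp1* differed by 2.81 in females (limma adjusted p = 0.00157) and by 0.67 in males (limma adjusted p = 0.314). *Zbtb16* differed by 1.87 in females and 0.32 in males, and *Sgk1* by 1.38 and 0.51, and neither passed in males. The interaction did not pass for these 3 genes, so a difference between the sexes was not shown. After rescaling 1 of the 9 passed over both sexes, lower. In the growth hormone and STAT5 list 3 of 10 rose and 3 fell. *Igfals*, a partner of IGF1 in plasma, fell by 1.60 (rescaled -2.06), *Ghr*, the growth hormone receptor, by 1.06 (rescaled -1.52) and *Igf1* by 0.45 (rescaled -0.91). *Stat5a* (0.68), *Jak2* (0.64) and *Stat5b* (0.61) rose as deposited, and after rescaling 0 rose and 3 fell. In the lipid droplet list, beside which *Hsd17b13* belongs by location, 4 of 9 tested genes rose and 2 fell. Among all genes 50.1% rose and 4.82% fell. *Cidec* rose by 1.66, *Plin4* by 1.43 and *Plin5* by 1.25, while *G0s2* fell by 1.22 and *Dgat2* by 0.84. After rescaling 3 rose and 4 fell.

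Markers of cell types were read beside these results. Of 6 hepatocyte markers 0 rose and 1 fell (3 after rescaling), and their summed level was 75047 to 102686 TPM in WT and 56725 to 82043 TPM in KO. All 4 macrophage markers rose, also after rescaling, with sums of 37.7 to 130.0 TPM in WT and 155 to 303 TPM in KO. The 5 bile duct markers summed to 27.7 to 58.5 TPM in WT and 252 to 713 TPM in KO, most of it *Spp1*. Of the 4 tested, 2 rose (*Spp1* and *Sox9*) and 1 fell (*Epcam*, -0.35) on both scales, and *Krt19* stood at -0.12. The 5 stellate cell markers summed to 14.6 to 27.8 TPM in WT and 42.4 to 105 TPM in KO, most of the KO sum being *Col1a1*. Of these, 2 rose as deposited (*Col1a1* by 4.01 and *Des* by 0.53), and after rescaling 1 rose and 1 fell (*Lrat*, -0.91). The 3 neutrophil markers summed to 0 to 15.3 TPM in WT and 7.69 to 38.1 TPM in KO, and both that were tested rose as deposited (1.48 for *S100a8* and 1.43 for *S100a9*) without passing after rescaling (1.13 and 1.05). The 4 endothelial markers did not pass as deposited and 1 fell after rescaling, with sums of 30.2 to 49.0 TPM in WT and 18.8 to 74.4 TPM in KO, and the 2 lymphocyte markers tested did not pass on either scale. The part of these shifts in the results for the 9 genes was not tested. *Cyp11b1*, which defines the adrenal cortex, was at 0 in all 12 livers, and 3 of the 6 adrenal and gonadal markers stayed under 1 TPM in all. The other 3 (*Cyp17a1*, *Star* and *Hsd3b1*) had their highest mean in WT females. The summed level of the 6 was 81.8 to 105 TPM in WT females, most of it *Cyp17a1*, against 1.95 to 4.78 TPM in WT males, 3.75 to 5.21 TPM in KO males and 6.63 to 22.9 TPM in KO females.

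The likeness of the 9 genes across the 12 livers is described here by Pearson's r of log2(TPM + 1). These values reflect mainly the differences between the 4 groups that the livers share. *Hsd3b2* and *Hsd3b3* had r = 0.94, *Hsd3b3* and *Hsd3b5* 0.91, and *Hsd11b1* and *Hsd17b2* 0.91. *Hsd17b2* was nearly as close to *Akr1c6* (0.89), *Hsd3b5* (0.88) and *Hsd3b3* (0.86), and *Hsd11b1* to *Akr1c6* (0.86). *Hsd17b13* ran opposite to *Hsd17b2* (-0.89), and *Srd5a1* opposite to *Esr1* (-0.62). Within groups, the second WT male had the lowest level of the WT males for *Hsd3b2*, *Hsd3b3*, *Hsd3b5*, *Akr1c6*, *Hsd17b2*, *Hsd11b1*, *Srd5a1* and *Hsd17b13* and the highest for *Esr1*.

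The 3 other tested genes with the pattern most like that of each gene were also read. For *Hsd3b5* these were *Cyp7b1* (r = 0.99), the oxysterol 7α-hydroxylase, and the major urinary protein genes *Mup1* (0.99) and *Mup12* (0.98). *Cyp7b1* averaged 404 TPM in WT males and 49.4 TPM in WT females, against 11.5 and 11.9 TPM in KO males and females. *Ugt2b36*, a glucuronosyltransferase gene, was among the nearest to both *Hsd3b2* (0.95) and *Hsd3b3* (0.95), and *Hao1* was nearest to *Hsd3b3* (0.95). The others were *Nudt7* (0.92) and *Mcm10* (0.91) for *Hsd3b2* and *Slc22a28* (0.94) for *Hsd3b3*. *Hsd11b1* was nearest to *Mpst* (0.97), *Bdh2* (0.97) and *C8g* (0.96), and *Hsd17b2* to *Slc13a2* (0.99), *Lifr* (0.98) and *Il1rap* (0.96). The genes nearest to *Akr1c6* were *Lrit2* (0.97), *Rdh7* (0.97) and *Lrit1* (0.96). *Hsd17b13* was nearest to *Cfl1* (0.99), *Alox5ap* (0.98) and *Dnajc9* (0.98). For *Srd5a1* the nearest were *Ugt2b35* (0.91), *Aox3* (0.91) and *Sfmbt1* (0.88), and for *Esr1* *Slc47a1* (0.92), *Gzf1* (0.91) and *Hgfac* (0.90). Such likeness over 12 livers in 4 groups is a description of levels and nothing more.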

How the data were processed

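Livers of 12 mice (4 groups of 3) were measured by bulk RNA sequencing. The authors deposited 1 table of 25676 genes with 1 TPM column per mouse, each summing to 1000000, per the file headers; the submitters' processing notes name the genome build GRCm38 and edgeR, and the aligner and the use of strand are not given in the sources used here. The same table carries other columns, the authors' own deposited fold change, log2 fold change and FDR p-value of KO against WT for 17332 genes. The FDR is rounded to 2 decimals.

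TPM were analysed as log2(TPM + 1), a pseudocount of 1, for 12278 genes with a mean of at least 0.5 TPM, with limma 3.58.1 in R 4.3.3 (intensity trend) and Benjamini-Hochberg adjustment over all tested genes, threshold 0.05, two-sided. Genotype was tested over all 12 mice, adjusting for sex. Contrasts within a sex, between the sexes and for the interaction were taken from a fit of the 4 group means. Fold changes on this scale understate changes of low genes. The median-of-ratios rescaling divided each library by the median ratio of its values to the geometric mean over libraries.

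Whole reads were recovered from steps in the TPM for 16579 genes (95.7% of those above 0), within 0.03 of a whole read. Those genes held 51.7% to 62.6% of the TPM of a library. For the other genes the read totals rest on annotated lengths, so the totals are approximate. Whole reads describe depth only. For the members other than *Hsd3b5* they ranged from 216 to 28630 per library. Read counts cover counting error only. Positions come from GENCODE mouse release M21 and promoter sequences from RefSeq.

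Groups came from the sample titles. The labels give each sample an animal number of its own, so replicates were taken as separate mice. Numbers within a group follow the order of deposition and pair nothing. The 9 genes, the gene lists and the tests were chosen with earlier results of these data known. Named beside the 9 genes and *Yap1* were up to 3 genes per list that passed the genotype comparison with the largest differences. Other members of the enzyme family, reductase and receptor lists were named if a group mean was at least 5 TPM. The 3 genes with the pattern nearest to each member were named too. *Hsd3b1*, *Hsd3b4*, *Hsd3b6*, *Hsd11b2*, *Esr2*, *Cyp17a1*, *Spp1*, *Sox9*, *Epcam*, *Krt19*, *Col1a1*, *Des*, *Lrat*, *Cyp11b1*, *Tsc22d3*, *Fkbp5*, *Star*, *Gm10681*, *Gm4450*, *S100a8*, *S100a9*, *Igf1*, *Jak2*, *Stat5b*, *G0s2* and *Dgat2* were named after their values were seen. Alternatives were a pseudocount of 0.1, a filter at 1 TPM, no filter, 2 rescalings, limma without the trend, a covariate for early animal numbers and leaving out each mouse. The limma script was tested on simulated data. Of the genes listed, 4 symbols were not matched and are not analysed here, and 2 more are not reported.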

Additional observations from a re-analysis of the deposited data

Results flagged for a closer look

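*Hsd3b5* passed the test of a difference between the sexes in the effect of genotype. Its log2 difference of KO minus WT in males minus that in females was -4.24 (limma adjusted p = 0.00186). With a pseudocount of 0.1 it was -3.74 and did not pass (limma adjusted p = 0.267), and no KO library held more than 14 reads of the gene. It was lower in all 3 KO males than in all 3 WT males and in all 3 KO females than in all 3 WT females. The sexes started from 305 ± 38.7 TPM and 15.8 ± 11.4 TPM in WT and were at 0.442 ± 0.464 TPM and 0.281 ± 0.439 TPM in KO (SD, n = 3 each).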

How the results depend on the processing

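The number of the 9 genes past the threshold was within 1.5 times its main value in each comparison under each alternative, except for the interaction, where it was 0 with a pseudocount of 0.1 and 2 without the second KO female, against 1. Leaving out each mouse in turn gave 7 to 7 genes for genotype, 6 to 8 in males, 5 to 9 in females, 2 to 4 for sex in WT, 0 to 0 for sex in KO and 1 to 2 for the interaction, and a *Yap1* difference of -3.46 to -3.26.

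Directions turned only among differences that had not passed. After median-of-ratios rescaling these were *Srd5a1* for genotype (-0.21), *Akr1c6* for sex in WT (0.11) and *Akr1c6* for the interaction (-0.21). *Akr1c6* for the interaction was also -0.000866 when libraries were rescaled without their 20 most abundant genes, and *Hsd17b2* for sex in KO was 0.0563 with a covariate for the early animal numbers. Leaving out 1 mouse turned *Esr1* for genotype (-0.37 to 0.00806), *Hsd17b2* (-0.0639 to 0.23) and *Akr1c6* (-0.32 to 0.0729) for sex in WT, and *Hsd17b2* (-0.28 to 0.0139) and *Akr1c6* (-0.17 to 0.22) for the interaction. For sex in KO it turned *Hsd3b2* (-0.31 to 0.0545), *Hsd3b3* (-0.0659 to 0.12), *Hsd3b5* (-0.0698 to 0.44), *Hsd11b1* (-0.30 to 0.11), *Hsd17b2* (-0.11 to 0.00704), *Srd5a1* (-0.14 to 0.12), *Akr1c6* (-0.24 to 0.0250) and *Esr1* (-0.14 to 0.32). The cause was not tested.

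No paired analysis was possible because the labels give each mouse its own number and no number is shared between groups. The early animal numbers hold 1 WT and 1 KO female, too few for a value of their own. With 3 mice a group, a difference that missed the threshold does not show equal levels. The *Hsd3b5* levels in KO rest on at most 14 reads a library.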
